A study of Mus musculus with 10 samples.

Results

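The 10 genes of cellular iron transport and storage considered here were Tfrc, Trf, Slc11a2, Fth1, Ftl1, Slc40a1, Cp, Heph, Ireb2 and Aco1. They were chosen by name, as genes known to import, store, export or sense iron, and all 10 were found among the 55536 genes of the count tables. The libraries, 10 in all, came from RNA of the cerebellum or the cerebral cortex of 5 mice aged 1 year. KO mice were homozygous for a germline frameshift deletion in Snx14, which encodes a sorting nexin of the endoplasmic reticulum, made by CRISPR/Cas9 on a C57BL/6J background and present in every cell of the body. KO 1 and KO 2 were compared with 3 mice that the labels call controls. Controls 1 and 2 carry 1 mutant copy (Het) and control 3 none (WT), and each mouse gave both tissues. The labels describe the tissue as a mix of cell types, so each value is an average over all cells of the piece.

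Iron reaches brain cells largely bound to transferrin, which is taken up with the transferrin receptor and released inside the endosome. There it is reduced and passes into the cytosol through the divalent metal transporter, where ferritin shells made of heavy and light chains store it. Ferroportin carries iron out of the cell, and the copper ferroxidases ceruloplasmin and hephaestin oxidize it on the way so that transferrin can bind it again. The iron regulatory proteins sense cytosolic iron and bind a hairpin, the iron-responsive element, in the untranslated regions (UTRs) of several of these messages. Binding in the 5′ UTR holds back translation, and binding in the 3′ UTR of the transferrin receptor message protects it from decay.

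The hairpins are shown because the UTR that holds them bears on what can be read here. In the 3′ UTR they can change the message level. In the 5′ UTR they act mainly on translation, which RNA sequencing does not measure. The sense strand of protein-coding GENCODE M21 transcripts was searched for CNNNNNCAGTGN with a fully paired upper stem of 5 base pairs, G-U pairs allowed. Each sequence below is 29 bases of the sense strand in DNA letters, 5′ to 3′, with the 6-base loop in capitals and GRCm38 coordinates.
Fth1, 5′ UTR, chr19:9982732-9982760, plus strand: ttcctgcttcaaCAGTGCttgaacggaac
Ftl1, 5′ UTR, chr7:45459779-45459807, minus strand: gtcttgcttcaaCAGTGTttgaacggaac
Slc40a1, 5′ UTR, chr1:45925465-45925493, minus strand: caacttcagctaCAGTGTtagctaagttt
Tfrc, 3′ UTR, chr16:32631219-32631247, plus strand: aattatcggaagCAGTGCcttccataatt
Tfrc, 3′ UTR, chr16:32631598-32631626, plus strand: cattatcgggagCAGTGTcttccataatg
Tfrc, 3′ UTR, chr16:32631663-32631691, plus strand: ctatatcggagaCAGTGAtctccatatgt
Tfrc, 3′ UTR, chr16:32631710-32631738, plus strand: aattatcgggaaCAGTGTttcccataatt
The motif fixes the first 5 letters of the loop, and the stems were left free to vary as long as they pair. A match in the 5′ UTR was found for 0.149% of 20105 genes searched, 3 of the 10 among them, and a match in the 3′ UTR for 0.613% of 20885 genes, of which Tfrc was the 1 member. Such a match is a description of the sequence, and no match says only that no hairpin of this exact form was in the annotated UTR. Hairpins with an incompletely paired upper stem were not sought, so a gene without a match may still carry an iron-responsive element.

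Gene counts per library ranged from 16088310 to 22975355. Levels are given as counts-per-million (CPM) values, scaled across all 10 libraries. Snx14 lay at 39.9 to 73.2 CPM in control and 15.5 to 17.4 CPM in KO cerebellum, and at 34.3 to 50.8 and 14.8 to 16.1 CPM in cortex, so every library matched its genotype label in direction. Marker sums placed the libraries in the labelled tissues, with 10 Purkinje cell genes at 5155 to 11370 CPM in cerebellum against 1357 to 1902 in cortex. Cortex control 2 stood apart from the other cortices, at 9055 CPM for 10 oligodendrocyte markers against 4899 to 5351. For 10 striatal neuron markers it was at 4491 CPM, against 2025 and 1840 in cortex controls 1 and 3. KO cortices 1 and 2 were at 1148 and 609 CPM for these, below every control. All 10 striatal markers were below 0 in log2 change in KO cortex (median -1.72), with 0 called by the test described below. The part of tissue content in the cortex values was not tested. Cerebellum KO 1 stood apart in 10 choroid plexus markers, at 68.9 CPM against 1216 to 3473 in the other cerebella.

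Per unit of length, ferritin and transferrin messages were far above the rest. Values here are transcripts-per-million (TPM) values, which divide by the annotated exonic length so that genes can be set side by side. That length joins all annotated exons of a gene and can exceed that of the expressed message. Levels of different genes are therefore compared only roughly. In control cerebellum Fth1, the ferritin heavy chain that oxidizes iron, stood at 1201 ± 127 TPM (SD, n = 3), and Ftl1, the light chain that helps to form the mineral core, at 660.5 ± 15.7 TPM. Trf, transferrin itself, followed at 533.4 ± 38.1 TPM. Tfrc, the receptor, came next at 50.9 ± 4.3 TPM. The regulators and the endosomal transporter were lower, with Ireb2 at 31.4 ± 2.59, Aco1 at 24.1 ± 0.971 and Slc11a2 at 20.9 ± 0.968 TPM. The export genes closed the order, with Cp at 7.82 ± 1.69, Heph at 2.66 ± 0.565 and Slc40a1, ferroportin, at 1.64 ± 0.209 TPM. The ranges of neighbours in this order did not overlap in control or in KO cerebellum, and the order was the same in both.

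In control cortex the first 4 places were held by the same genes, with Fth1 at 1427 ± 182 TPM, Ftl1 at 526.3 ± 40.9 TPM, Trf at 270.9 ± 90.6 TPM and Tfrc at 43.6 ± 8.04 TPM (SD, n = 3). Ireb2, Slc11a2 and Aco1 overlapped in TPM from each neighbour to the next, between means of 19.8 and 18.1, as did Cp, Heph and Slc40a1, between means of 2.97 and 2.09. The ratio of heavy to light ferritin chain message in TPM was 1.67, 2.01 and 1.77 in control cerebellum and 2.63, 2.86 and 2.63 in control cortex. In KO mice it was 1.93 and 2.13 in cerebellum and 2.37 and 2.47 in cortex. All 5 cortices thus lay above all 5 cerebella in this ratio. Its size depends on the annotated exonic lengths, 3469 bases for Fth1 and 1340 for Ftl1, which are the same in every library. It is therefore not a measured ratio of messages.

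**Figure D1:**
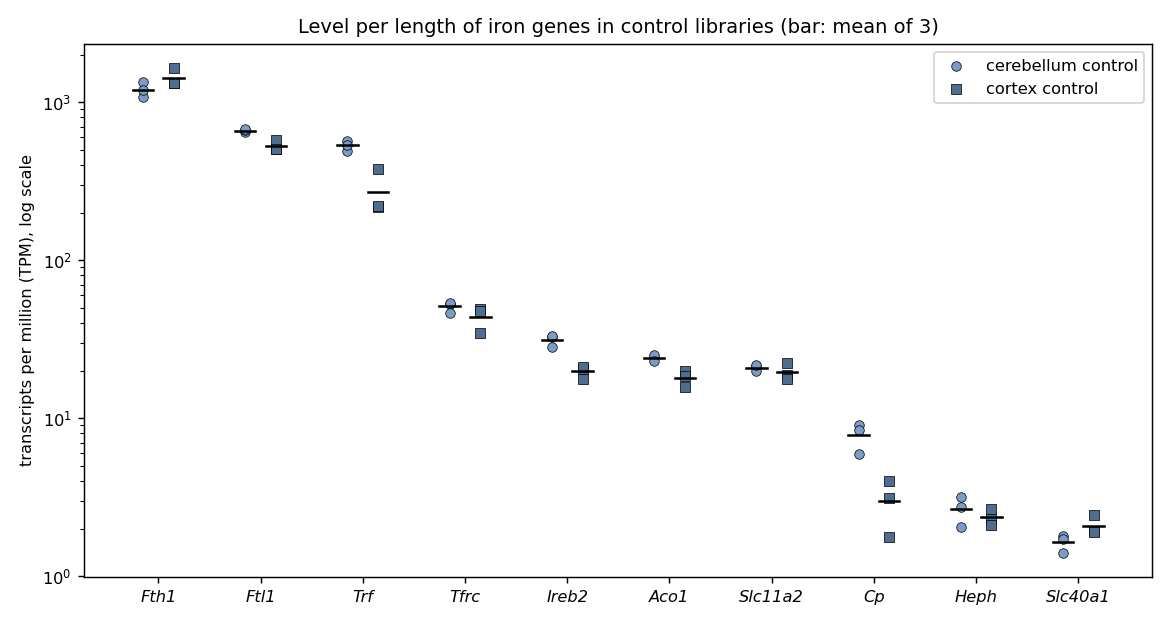
Level per length (TPM, log axis) of the 10 iron genes in the 3 control libraries of cerebellum (circles) and cortex (squares), with bars at the mean. Genes are ordered by their cerebellar mean, from Fth1 at 1201 TPM down to Slc40a1 at 1.64 TPM.

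Loss of Snx14 was compared with control in each tissue to ask how iron genes differ in the cerebellum, which the study treats as the region that degenerates, and in the cortex, its region without degeneration. The clearest difference lay with the ferroxidases. Heph rose 2.23-fold in KO cerebellum, and Cp was 1.59-fold higher there without passing the test over all genes. Both also lay above every control in cortex. Ferritin and transferrin messages gave no call in either tissue, and Tfrc in KO cerebellum lay slightly below every control. A gene was called at an adjusted p under 0.05 (edgeR quasi-likelihood, Benjamini-Hochberg over all tested genes) with an absolute log2 fold change over 0.5.

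In cerebellum 1 of the 10 genes was called, with a higher level in KO mice, against a background of 1.55% of 19447 tested genes in either direction and 0.514% higher. The genotypes were apart, with both KO libraries above or both below all 3 controls, for 5 of the 10, against a background of 30.0%. Of these, 4 were higher and 1 lower in KO mice, against 15.5% and 14.6% of all tested genes. The median log2 change of the 10 genes was 0.06, and that of all tested genes 0.000899. In cortex 0 of the 10 were called by edgeR and 0 by DESeq2, where the edgeR background was 0% of 19202 genes, and 2 of the 10 had an unadjusted edgeR p under 0.05. Over all tested genes in cortex that held for 1139, and DESeq2 called 49. Snx14 itself was not called in cortex by edgeR, at a log2 change of -1.36 (95% interval -1.81 to -0.91) and an adjusted p of 0.754. The 0 calls of edgeR there thus do not show that the genes were unchanged. The genotypes were apart for 4 of the 10 in cortex, against 24.7% of tested genes, and of these 3 were higher and 1 lower, against 10.5% and 14.2%. The median of the 10 was 0.05 on the log2 scale, against 0.0012 over all genes.

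**Figure D2:**
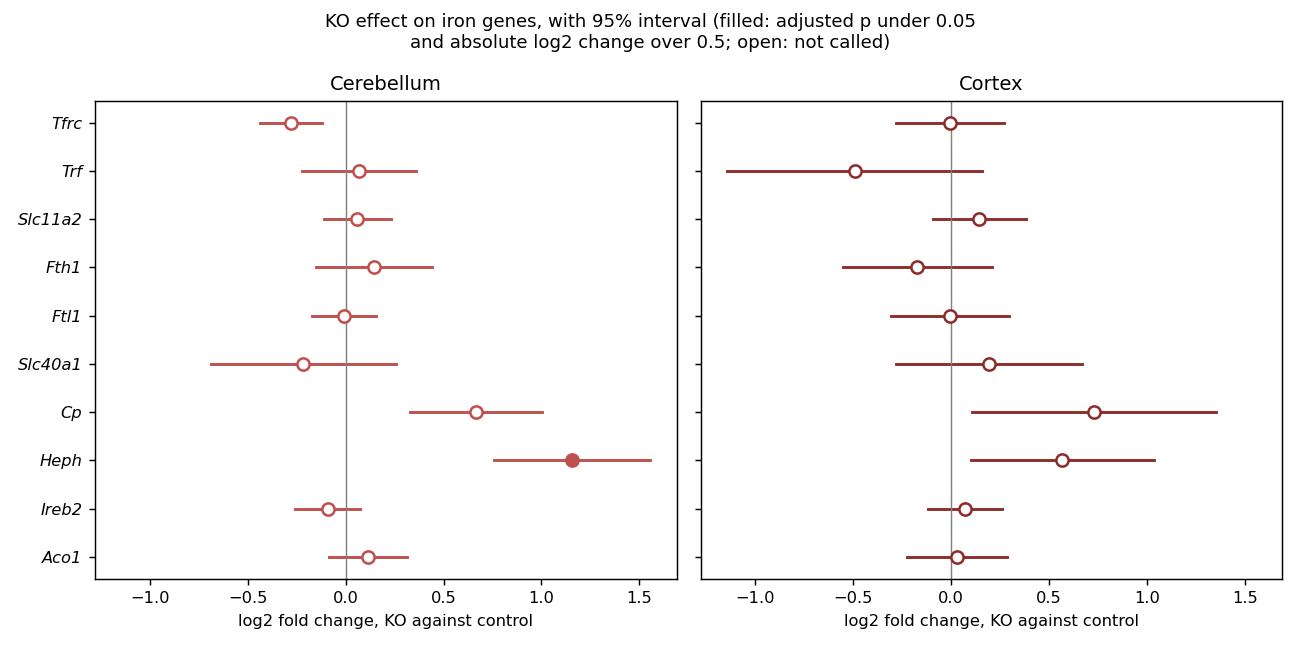
Log2 fold change of KO against control for the 10 iron genes, with the 95% interval of the edgeR fit, in cerebellum (left) and cortex (right). A filled point marks a call, which only Heph in cerebellum reached, at 1.16. The intervals of Heph and Cp lie above 0 in both tissues.

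Among the import genes, Tfrc (chromosome 16, 32608920 to 32632794, plus strand) stood at 97.8, 90.3 and 101.8 CPM in control cerebellum 1 to 3 and at 81.2 and 79.1 CPM in KO 1 and KO 2. Both KO cerebella were below all 3 controls. The log2 change was -0.28 (SE 0.0691, 95% interval -0.44 to -0.12), and the edgeR p of 0.00348 became 0.0989 after adjustment. Without control 2 the adjusted p was 0.0320, and over all alternatives it ran up to 0.378, with a change below the size required for a call each time. The summed markers of Purkinje cells, which were 9837 to 11370 CPM in control and 5155 to 5343 CPM in KO cerebellum with 9 of 10 genes called lower, moved in the same direction, and their part in the Tfrc value was not tested. In bulk tissue fewer cells of a type and less RNA per cell cannot be told apart. In cortex Tfrc was at 105.6, 81.9 and 101.0 CPM in controls and 95.02 and 94.7 CPM in KO mice, inside the control range, with a log2 change of -0.0047 (95% interval -0.28 to 0.27).

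Trf (chromosome 9, 103204001 to 103230444, minus strand) was at 489.7, 599.9 and 545.3 CPM in control cerebellum and 505.0 and 644.6 CPM in KO cerebellum, which overlap, with a log2 change of 0.07 (95% interval -0.22 to 0.36). In cortex the controls were at 252.8, 480.5 and 249.8 CPM and the KO mice at 231.1 and 230.9 CPM. Both KO cortices were thus below all controls, and control 2 was far above the other controls. The log2 change was -0.49 (95% interval -1.14 to 0.16, edgeR adjusted p 0.886), and without cortex control 2 it was -0.11 (adjusted p 0.599). Other annotated genes cover 63.5% of the exonic bases of Trf, among them Gm20425 on the same strand. Read pairs over both Trf and Gm20425 were counted for each, so the values of the pair cannot be separated.

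Oligodendrocytes are the main makers of transferrin in the brain, so Trf is set here beside the oligodendrocyte marker sum of each library. Per 100 CPM of the 10 oligodendrocyte markers, Trf came to 10.9, 8.86 and 9.89 CPM in control cerebellum and 8.43 and 8.39 CPM in KO cerebellum. The same quotient was 5.16, 5.31 and 5.01 in control cortex and 4.32 and 4.35 in KO cortex. On this scale cortex control 2, at 5.31, was close to the other cortical controls. KO libraries lay below all controls of their tissue in both tissues, by a small margin in cerebellum, where the lowest control was 8.86. No test was run on this quotient, which was chosen with the library values known.

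**Figure D3:**
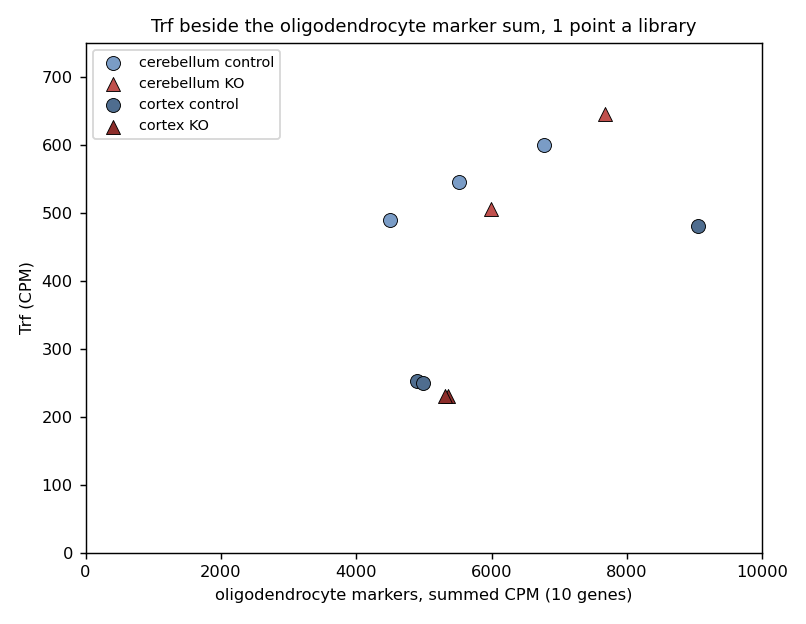
Trf (CPM) against the summed CPM of 10 oligodendrocyte markers, 1 point for each of the 10 libraries. Cortex control 2 lies at 9055 marker CPM and 480.5 CPM of Trf, away from the other 4 cortices, and the cerebella lie above the cortices at like marker sums.

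Slc11a2 (chromosome 15, 100387898 to 100425072, minus strand), the transporter that moves iron out of the endosome, varied little. It was at 40.4, 39.9 and 41.9 CPM in control cerebellum and 42.0 and 43.3 CPM in KO cerebellum, just above the controls. The log2 change was 0.06 (95% interval -0.11 to 0.23). In cortex it was at 41.9, 43.5 and 48.8 CPM in controls and 50.7 and 47.1 CPM in KO mice, with a log2 change of 0.14 (95% interval -0.09 to 0.38).

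The ferritin chains carried the highest counts of the 10 genes and did not separate the genotypes. Fth1 (chromosome 19, 9980598 to 9985098, plus strand) was at 1116, 1466 and 1268 CPM in control cerebellum and 1333 and 1524 CPM in KO cerebellum. In cortex it was at 1598, 2189 and 1577 CPM in controls and 1551 and 1592 CPM in KO mice. The groups overlapped in both tissues, and the highest cortical value was again that of control 2. The log2 changes were 0.15 (95% interval -0.15 to 0.44) in cerebellum and -0.17 (-0.55 to 0.21) in cortex, where leaving out control 2 brought it to 0.0018.

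Ftl1 (chromosome 7, 45457944 to 45459884, minus strand) was at 258.0, 281.8 and 276.3 CPM in control and 267.2 and 276.5 CPM in KO cerebellum. Cortex gave 234.9, 296.2 and 231.6 CPM in controls and 252.6 and 249.2 CPM in KO mice. Both groups overlapped in each tissue, with log2 changes of -0.0088 (95% interval -0.17 to 0.15) and -0.0051 (-0.31 to 0.30). Other annotated genes cover 34.6% of the exonic bases of Ftl1, of which Gm10252 on the opposite strand had 115 to 147 CPM. Read pairs that map to several places were not counted, and the listed ferritin pseudogenes held 0.898 CPM or less each, so reads shared with those copies are missing from the ferritin values.

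Heph (chromosome X, 96455359 to 96574485, plus strand), the membrane-bound ferroxidase hephaestin, was at 6.3, 5.0 and 7.4 CPM in control cerebellum 1 to 3 and at 14.2 and 13.8 CPM in KO 1 and KO 2. The KO libraries lay far above the controls, with means of 13.97 ± 0.266 (SD, n = 2) and 6.24 ± 1.22 CPM (SD, n = 3). The log2 change was 1.16 (SE 0.175, 95% interval 0.76 to 1.56), with an edgeR adjusted p of 0.0130. The adjusted p was 0.0843 without control 1, 0.0691 without KO 1 and 0.0569 without KO 2, at log2 changes of 1.16, 1.15 and 1.17, and no other alternative lost the call. With 1 KO library left, that library is assumed to vary like the controls. In cortex Heph was at 7.1, 6.8 and 5.5 CPM in controls and 10.9 and 8.1 CPM in KO mice, above every control, with a log2 change of 0.57 (SE 0.201, 95% interval 0.10 to 1.03). There the edgeR p was 0.0234 and the adjusted p 0.796. These levels rest on 90 to 333 counts per library.

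Cp (chromosome 3, 19957054 to 20009145, plus strand), ceruloplasmin, which astrocytes carry on their surface, was at 26.0, 17.9 and 24.8 CPM in control cerebellum and 37.6 and 35.4 CPM in KO cerebellum. Every KO value exceeded every control. The log2 change was 0.67 (SE 0.148, 95% interval 0.33 to 1.00), and the edgeR p of 0.00176 became 0.0670 after adjustment. DESeq2 called the gene at an adjusted p of 0.00235, as did edgeR when control 2 was left out, at 0.0182, and over all alternatives the adjusted p ran up to 0.259. In cortex Cp was at 13.4, 6.5 and 10.2 CPM in controls and 15.5 and 17.5 CPM in KO mice, again with no overlap. The log2 change there was 0.73 (SE 0.268, 95% interval 0.11 to 1.35) with an adjusted p of 0.796, and 0.49 without cortex control 2, which held the lowest value.

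Markers of several glial cells were higher beside the ferroxidases in KO cerebellum. The 7 reactive astrocyte markers summed to 386 to 463 CPM in control and 779 to 821 CPM in KO cerebellum, with 7 of 7 above 0 in log2 change and 3 called higher. The 9 astrocyte markers summed to 5318 to 5915 CPM in controls and 6070 to 6422 CPM in KO mice. Of these 8 were above 0 in log2 change, 1 below and 3 called higher. The 10 microglia markers summed to 208.5 to 241.4 CPM in controls and 314.2 to 319.7 CPM in KO mice. Of these 9 were above 0, 1 below and 2 called higher. No marker of these lists had 0 counts in any cerebellum. In cortex the reactive astrocyte sums were 200.5 to 243.9 CPM in controls and 266.3 to 279.4 CPM in KO mice, with 4 of 7 above 0 in log2 change, 3 below and 0 called. All 9 astrocyte markers, at 3691 to 5004 CPM in control and 5321 to 5628 CPM in KO cortex, and all 9 endothelial cell markers, at 130.4 to 223.4 and 221.1 to 245.1 CPM, were above 0 in log2 change there, with 0 of either list called. The 10 oligodendrocyte markers had 8 above 0, 2 below and 0 called in KO cerebellum. In KO cortex 0 of them were above 0, 10 below and 0 called. Of 10 fibroblast and vascular wall markers, 9 were above 0, 1 below and 0 called in each tissue. The part of these markers in the Heph and Cp values was not tested. Choroid plexus cells also make ceruloplasmin. Their markers summed to 2929, 1216 and 3473 CPM in control cerebellum, where Cp was at 26.0, 17.9 and 24.8 CPM, so control 2 was the lowest control in both. In KO 1 and KO 2 the sums were 68.9 and 2987 CPM and Cp was at 37.6 and 35.4 CPM, and the part of choroid plexus in the Cp values was not tested.

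**Figure D4:**
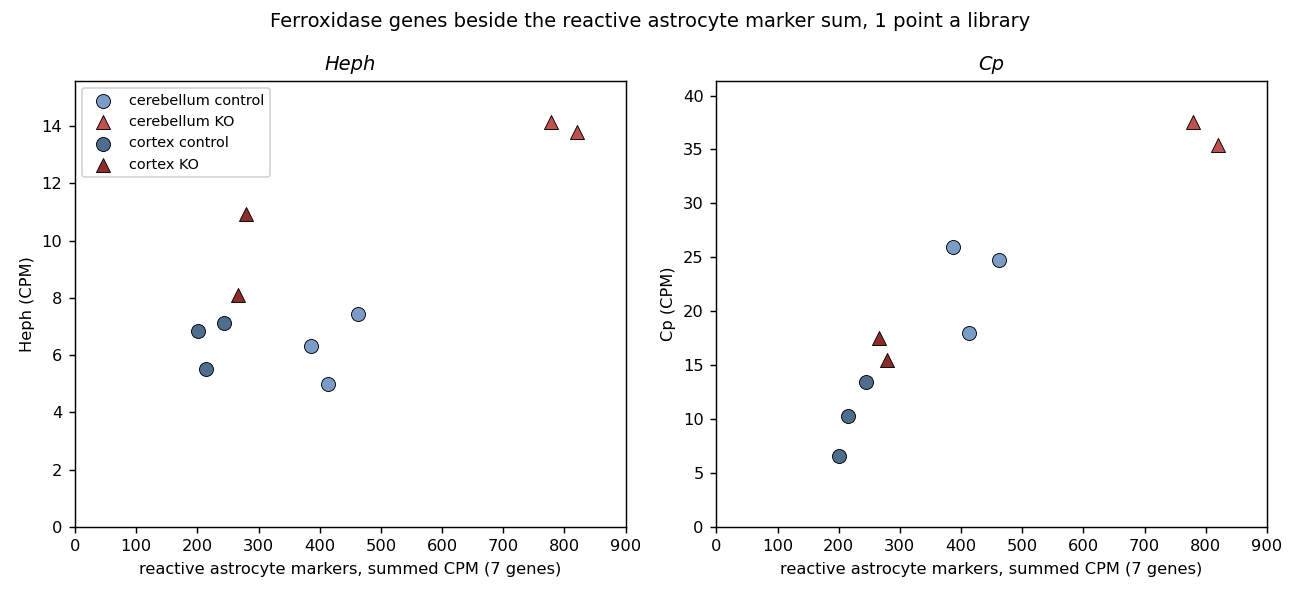
Heph (left) and Cp (right) in CPM against the summed CPM of 7 reactive astrocyte markers, 1 point a library. KO cerebella lie at 779 to 821 marker CPM with the highest Heph and Cp levels, and cortical KO libraries lie at 266.3 to 279.4 against 200.5 to 243.9 in cortical controls, where 4 of the 7 markers were above 0 in log2 change and 3 below.

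Slc40a1 (chromosome 1, 45908068 to 45926523, minus strand), ferroportin, the iron exporter with which both ferroxidases work, showed no such separation. It was at 4.9, 4.0 and 4.7 CPM in control cerebellum and 3.3 and 4.5 CPM in KO cerebellum. In cortex it was at 7.7, 6.7 and 5.9 CPM in controls and 6.4 and 8.9 CPM in KO mice. Groups overlapped in both tissues, with log2 changes of -0.22 (95% interval -0.69 to 0.26) and 0.19 (-0.28 to 0.67). In cerebellum the log2 change was -0.0073 without KO 1 and -0.47 without KO 2. The ratio of Heph to Slc40a1 in CPM was 1.30, 1.24 and 1.57 in control cerebellum and 4.30 and 3.06 in KO cerebellum. The ratio of Cp to Slc40a1 went from 5.36, 4.46 and 5.24 to 11.4 and 7.85. In cortex the Heph ratio of KO 2, at 0.907, was below all controls, at 0.930 to 1.02, and that of KO 1, at 1.71, above them. With 60 to 139 counts of Slc40a1 per library, these ratios are imprecise.

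The regulators were nearly level. Ireb2 (chromosome 9, 54863789 to 54912530, plus strand) encodes iron regulatory protein 2, and was at 92.8, 85.4 and 95.4 CPM in control and 89.8 and 82.4 CPM in KO cerebellum. Its cortical values were 68.2, 65.0 and 68.2 CPM in controls and 68.7 and 71.1 CPM in KO mice, the latter just above the controls. Log2 changes were -0.09 (95% interval -0.26 to 0.07) and 0.07 (-0.12 to 0.26). Aco1 (chromosome 4, 40143081 to 40198338, plus strand), the cytosolic aconitase that acts as iron regulatory protein 1 when it lacks its iron-sulfur cluster, was at 32.5, 35.8 and 31.8 CPM in control and 36.4 and 36.2 CPM in KO cerebellum. The margin over the highest control was small, and the log2 change was 0.11 (95% interval -0.08 to 0.31). In cortex it was at 31.1, 27.4 and 28.6 CPM in controls and 30.0 and 28.6 CPM in KO mice, with a log2 change of 0.03 (95% interval -0.23 to 0.28).

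**Figure D5:**
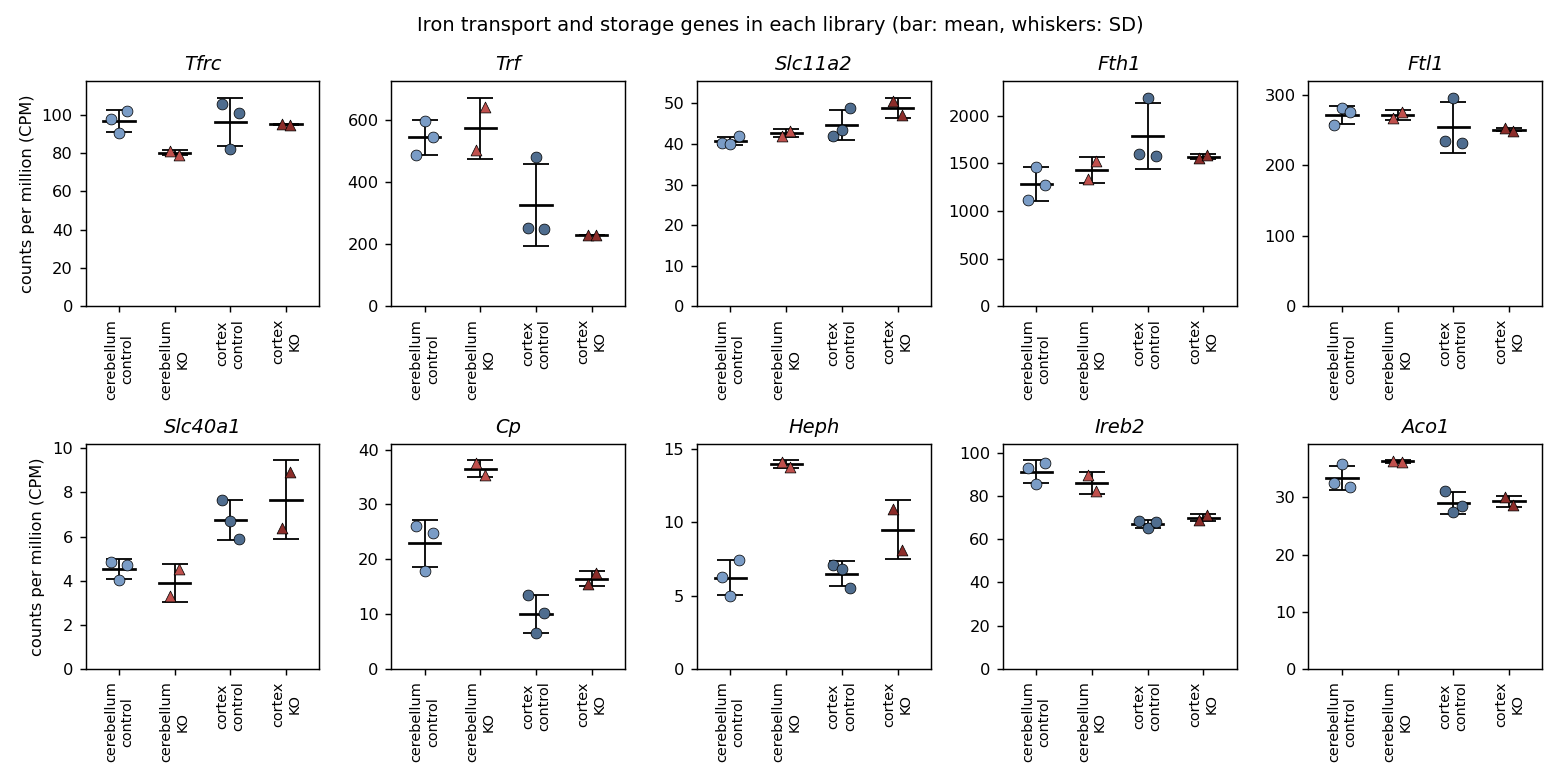
CPM of each of the 10 iron genes in every library, in 4 groups, with bars at the mean and whiskers of 1 SD (3 controls and 2 KO mice per tissue). Heph and Cp stand above all controls in KO mice of both tissues, and cortex control 2 is the highest cortex for Trf, Fth1 and Ftl1.

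Whether genotype acted unequally in cerebellum and cortex was tested with an interaction term over the 10 libraries. This main fit took both tissues of a mouse as independent. By edgeR 0 of the 10 genes passed an adjusted p of 0.05, and 0 had an unadjusted p under 0.05, where 0.102% of 20614 genes were called. Over all these genes 1706 had an unadjusted edgeR p under 0.05. DESeq2 also gave 0 of the 10, and it called 221 of the 20614 genes. The log2 difference for Heph, cerebellum minus cortex, was 0.61 (95% interval -0.0021 to 1.23, p 0.0507, adjusted p 0.606). For Cp it was -0.04 (-0.80 to 0.71), an interval that leaves room for a sizeable difference either way. For Trf it was 0.58 (-0.19 to 1.35), and 0.18 without cortex control 2. With the animal as a block edgeR called 128 of 20614 genes, where the main fit called 21, and no call of a member changed. The log2 difference for Heph was 0.41 to 0.85 over all alternatives, this block among them, with no call. The larger Heph change in cerebellum is therefore not shown to differ from that in cortex.

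Cerebellum and cortex of the 3 control mice were compared to describe the regions without homozygous loss of Snx14. Controls 1 and 2 are Het, so only control 3 lacks the mutation. The main fit took both tissues of a mouse as independent, and a block for the animal is among the alternatives. Of the 10 genes, 3 were called, against a background of 40.5% of 19416 genes. They were 2 higher and 1 lower in cerebellum, against 19.1% and 21.5%. The regions were apart for 6 of the 10, against 61.7% of all tested genes, with 4 higher and 2 lower, against 31.5% and 30.3%. Neither total exceeds its background. The median log2 difference was 0.05 for the 10 genes and 0.02 for all.

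Cp was 2.28-fold higher in control cerebellum than in control cortex, at 22.9 ± 4.34 against 10.1 ± 3.45 CPM (SD, n = 3), a log2 difference of 1.19 (SE 0.249, edgeR adjusted p 0.00365). Every cerebellum exceeded every cortex. Without cortex control 2 the difference was 0.92 (adjusted p 0.00123). The 10 choroid plexus markers summed to 1216 to 3473 CPM in control cerebellum and 14.6 to 30.3 CPM in control cortex, with at most 1 marker at 0, and their part in this difference was not tested. The 9 astrocyte markers summed to 5318 to 5915 CPM in control cerebellum and 3691 to 5004 CPM in control cortex, which was not tested either.

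Trf was 1.66-fold higher in cerebellum, at 545.0 ± 55.1 against 327.7 ± 132 CPM, a log2 difference of 0.73 (SE 0.238, edgeR adjusted p 0.0297). All 3 cerebella were above all 3 cortices, by a small margin over cortex control 2. Without cortex control 2 the difference was 1.09 with an adjusted p of 3.48e-06. The call was lost without cerebellum control 2 (adjusted p 0.0778), cerebellum control 3 (0.0715), cortex control 1 (0.104) or cortex control 3 (0.101).

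Slc40a1 was lower in cerebellum, at 4.53 ± 0.448 against 6.75 ± 0.889 CPM, a log2 difference of -0.58 (SE 0.170, edgeR adjusted p 0.0189). No cerebellum reached the lowest cortex. The call was lost without cerebellum control 2 (adjusted p 0.0617) or cortex control 1 (0.0588). The 10 microglia markers, at 208.5 to 241.4 CPM in cerebellum and 465.2 to 542.7 CPM in cortex with all 10 called lower in cerebellum, moved in the same direction, and their part was not tested.

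At any size of change 5 of the 10 genes passed the adjusted p, against 53.3% of all tested genes, and 2 of the 5 did so without reaching the size of a call. Ireb2 was higher in cerebellum by 0.44 on the log2 scale (SE 0.0748, edgeR adjusted p 0.00117), with no overlap between the regions. Fth1 was lower in cerebellum, with a log2 difference of -0.48 (SE 0.155, adjusted p 0.0273), and it passed the size threshold under DESeq2, at -0.50. Without cortex control 2 the difference was -0.34 (adjusted p 0.0231). Aco1 was at 33.4 ± 2.13 against 29.1 ± 1.89 CPM with a log2 difference of 0.20 and an adjusted p of 0.101. Differences for Tfrc, Slc11a2, Ftl1 and Heph lay between -0.14 and 0.09 on the log2 scale, and the regions overlapped for all 4.

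The wider iron pathway was described with 72 further genes in 6 roles, namely uptake and reduction, ferritin handling, hepcidin and systemic control, heme transport and breakdown, heme synthesis, and mitochondrial iron with iron-sulfur clusters. In KO cerebellum 2 of the 66 tested were called, both higher and both in the uptake list, where 1.55% of all tested genes were called. The genotypes were apart for 22 of the 66, against 30.0% of all tested genes, and the median log2 change was -0.03. Lcn2, a secreted protein that binds iron-carrying siderophores and is known from reactive glia, held 13, 4 and 5 counts in control cerebellum and 45 and 41 counts in KO cerebellum. Its log2 change was 2.53 (SE 0.463, edgeR adjusted p 0.0306). Ltf, lactoferrin, an iron-binding protein of secretions and neutrophils, held 6, 0 and 6 counts in controls and 25 and 68 counts in KO mice. Its log2 change was 3.42 (SE 0.675, edgeR adjusted p 0.0436). Both are near the lowest counts tested, and both calls were lost without KO 1, without KO 2 and without control 3, that of Ltf also without control 1, with adjusted p-values up to 0.175 for Lcn2 and 0.276 for Ltf.

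Steap2, an endosomal metalloreductase, is named after its values were seen. It was at 169.4, 123.8 and 157.4 CPM in control cerebellum and 88.6 and 109.6 CPM in KO cerebellum, below all controls. The log2 change was -0.61 (SE 0.138, edgeR adjusted p 0.0744), which was not a call. It was called by DESeq2, without the count filter and without control 2. In cortex 0 of 62 tested iron pathway genes were called by edgeR and 0 by DESeq2, with 3 at an unadjusted edgeR p under 0.05. Over all 19202 genes tested there edgeR called 0 and DESeq2 49, and 1139 had an unadjusted edgeR p under 0.05. The interaction gave 0 of 68 by both tools, with 3 at an unadjusted edgeR p under 0.05. Over all 20614 genes edgeR called 21 there and DESeq2 221, and 1706 had an unadjusted edgeR p under 0.05. In heme synthesis 0 of 9 genes were called in either tissue, and in mitochondrial iron and iron-sulfur clusters 0 of 20. The share called over all genes was 1.55% in cerebellum and 0% in cortex.

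Between the control regions 23 of 63 tested iron pathway genes were called, 13 higher and 10 lower in cerebellum, where 40.5% of all tested genes were called, 19.1% higher and 21.5% lower. Steap2 was at 15.1, 14.0 and 18.5 CPM in control cortex, far below the cerebellar values, with a log2 difference of 3.24 (SE 0.152, edgeR adjusted p 5.21e-07). Steap1, of the same family, held 124, 49 and 106 counts in cerebellum and 2, 3 and 3 counts in cortex, a log2 difference of 4.82 (95% interval 3.64 to 6.0). It also held 6 counts in cerebellum KO 1, the library with few choroid plexus reads, against 141 in KO 2, and the part of choroid plexus was not tested. Slc22a17, the receptor for lipocalin 2, was lower in cerebellum, with a log2 difference of -0.81.

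Ncoa4, the receptor that delivers ferritin to autophagy, was at 72.5 ± 3.5 CPM in control cerebellum and 44.6 ± 1.95 CPM in control cortex, a log2 difference of 0.70 (SE 0.0769). In the hepcidin pathway, Hfe was higher in cerebellum with a log2 difference of 1.33, and the ligand Bmp2 and the hormone gene Erfe were lower, at -1.86 and -1.61. Both rest on few counts in control cerebellum, 24, 29 and 22 for Bmp2 and 11, 9 and 9 for Erfe. Among heme transporters Flvcr2 differed by 2.05, on 13, 11 and 10 counts in control cortex, and Flvcr1 by 0.72. The heme-binding gene Hpx, at under 1 CPM, differed by -1.40. The call of Hpx was lost under DESeq2 and in 4 of the edgeR fits without a single library, with an adjusted p of up to 0.120. Among mitochondrial genes Fdxr, the reductase that feeds electrons to cluster assembly, differed by 0.97 and the ferredoxin gene Fdx1l by -1.31. In heme synthesis 0 of 9 genes were called by edgeR between the regions, against 40.5% of all tested genes. Of the 9, 2 had an adjusted p under 0.05, against 53.3% of all tested genes. Hamp, the hepcidin gene, had 1 count in all 10 libraries together, and Ftmt, mitochondrial ferritin, had 0.

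For each gene called in a comparison, the closest profiles over the 10 libraries were sought among 11539 genes with a mean of at least 10 CPM, by the root mean square distance of centred log2 CPM. For Heph these were Prodh, a mitochondrial proline dehydrogenase, at a distance of 0.160, and the kinase gene Sgk1 at 0.226. Prodh was at 34.3 CPM in control cerebellum, 57.4 in KO cerebellum, 34.2 in control cortex and 43.3 in KO cortex. For Cp they were Itih5 at 0.152 and Pygm, a glycogen phosphorylase, at 0.189, with Itih5 at 45.9, 80.4, 21.03 and 29.0 CPM in the same order of groups. Trf was matched most closely by Gm20425, with which it shares exons, at 0.0275, and by Cd59a, a complement inhibitor gene, at 0.106. For Slc40a1 the nearest were Gng12 and Fam169a, both at 0.129.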

How the data were processed

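Bulk RNA was measured in 10 libraries. The deposited values are raw read-pair counts per gene, 1 table a library. Per the file headers and the methods of the study, the authors trimmed reads, aligned them to GRCm38 with STAR and counted pairs over exons with featureCounts 2.0.1, without strand, without pairs whose ends lie on different chromosomes, without multi-mapping reads, and for every gene a pair overlaps. The libraries were strand-specific, but pairs were counted without strand and for every gene they overlap. Overlapping genes can therefore receive the reads of their neighbours. The 55536 gene entries were named from GENCODE M21, and 26345 other entries, with 0.160 to 0.926% of a library's counts, were left out. Gene totals per library were 16088310 to 22975355, and genes under about 100 counts, such as Slc40a1, carry more counting error.

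KO and control were compared within each tissue, and the regions among controls, with edgeR 4.0.16 (R 4.3.3), TMM factors and filterByExpr at a count minimum of 10. Calls needed an absolute log2 fold change over 0.5 at an adjusted p under 0.05, and for the interaction of genotype and tissue the adjusted p alone. CPM used TMM factors over all 10 libraries. The fit was tested on simulated counts. Groups came from the labels, and libraries of a group are different mice. The animal numbers in the labels tie the tissues of 1 mouse together. Deviations from the group means correlated across genes between tissues of an animal with r of 0.215 to 0.445. With 2 KO mice their deviations mirror each other, so both share 1 value of r, 0.339. Alternatives were DESeq2 1.42.0, RLE scaling, no count filter, a block for animal or replicate number, 1 fit of all libraries, and leaving out each library.

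The 10 genes, the 72 further iron genes and the 13 marker lists were chosen with earlier results of these data known. Named in the text are the 10 genes, at most 3 called iron genes per role and comparison by smallest adjusted p, Snx14, and for each called member the 2 genes of nearest profile. Other names are given as chosen after their values were seen. A gene that this rule would name is not reported here.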

Additional observations from a re-analysis of the deposited data

How the results depend on the processing

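In cerebellum the count of called members was 1, and it became 2 with DESeq2 and 2 without the count filter, where Cp joined Heph, and ran from 0 to 2 when single libraries were left out. The count of other iron genes called there, 2, became 3 with DESeq2 and 3 without the filter, where Steap2 joined, and 0 with 1 fit of all 10 libraries, and it ran from 0 to 3 when single libraries were left out. Without the filter 1 member was called in cortex (Cp) and 1 in the interaction (Trf). The numbers that control and KO mice share in the labels belong to different animals (r of -0.0527 to 0.136), so they do not pair them. With a replicate block on these numbers the cerebellum count was 1 for the members and 0 for the other iron genes, and the tissue comparison with the animal as replicate block gave 3 members and 24 other iron genes. No call of a member changed with either block.

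Signs turned only for members that were not called. With the block on numbers Ftl1 was at 0.0043 in cerebellum and Tfrc at 0.039 in cortex. DESeq2 and RLE scaling gave Tfrc -0.018 and -0.018 between the regions, and Ftl1 -0.0036 and -0.0038 in the interaction. Leaving out single libraries gave log2 ranges that cross 0. In KO cerebellum they were -0.12 to 0.24 for Trf and -0.048 to 0.023 for Ftl1. In KO cortex they were -0.11 to 0.068 for Tfrc, -0.26 to 0.0018 for Fth1, -0.071 to 0.12 for Ftl1, -0.056 to 0.41 for Slc40a1 and -0.014 to 0.082 for Aco1. Between the regions they were -0.13 to 0.063 for Tfrc and -0.20 to 0.078 for Heph, and in the interaction -0.13 to 0.055 for Ftl1 and -0.33 to 0.18 for Cp. The causes of these shifts were not tested.

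Over all genes the cerebellum count of 302 calls became 842 without the filter, 181 with the block on numbers, and 133 to 400 when single libraries were left out. In cortex the count of 0 became 49 with DESeq2 and 380 without the filter, and 0 to 98 when single libraries were left out, the highest without control 2. There were 2 KO mice and 3 pooled controls of mixed genotype, and the calls of Heph depend on single libraries. Small changes of the other genes may therefore have gone uncalled. In cortex large ones may have too, as Snx14 was not called there by edgeR at a log2 change of -1.36.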
